A study of Mus musculus with 48 samples.

Results

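Aldehydes and reactive carbonyls are cleared by several enzyme families. Here 10 lung transcripts of 3 such families were followed in mice that breathed room air or hyperoxia. The 10 were taken by gene name from a table of 47561 genes, and each name matched 1 row. They were 4 aldehyde dehydrogenases (Aldh3a1, Aldh1a1, Aldh1a7 and Aldh2), 3 aldo-keto reductases (Akr1b8, Akr1b3 and Akr1a1) and 3 carbonyl reductases (Cbr1, Cbr2 and Cbr3). All 10 were at or above an FPKM (fragments scaled to transcript length and to the mapped fragments of the library) of 1 in all 48 mice, so a filter on low values left none out.

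Oxygen in excess oxidizes membrane lipids, and their breakdown releases aldehydes such as 4-hydroxynonenal and acrolein that bind to proteins and DNA. Aldehyde dehydrogenases oxidize them to acids, aldo-keto reductases and carbonyl reductases reduce them to alcohols with NADPH, and several of these genes are known targets of Nrf2, a transcription factor that responds to oxidants. In lung, ALDH1A1 and CBR2 are known as enzymes of the airway lining and of club cells, the secretory cells of the small airways, while the mitochondrial ALDH2 and the aldehyde reductase AKR1A1 are made in most cells.

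The 48 lungs came from adult mice of 2 strains, C3H/HeN (C3H) and C57Bl/6 (C57B), in 16 groups of 3 mice, 1 for each combination of strain, sex, injection and air. Each mouse had a single intraperitoneal injection of saline or of 25 mg/kg aurothioglucose (ATG, a drug containing gold that blocks thioredoxin reductases), and then breathed room air (RA) or hyperoxia (HYP, over 95% oxygen) for 96 h. The labels call the strain C57Bl/6 only, and the study's texts disagree on the substrain, which limits how the C57B groups can serve as a model. The series' design text describes ATG for all mice, while the labels of each sample give saline or ATG. C3HM, C3HF, C57BM and C57BF denote males and females of each strain. Whole lung was sequenced, so fewer cells of a type and less RNA per cell cannot be told apart.

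Lung markers were abundant in the libraries, with a median over 48 mice of 17850 FPKM for Sftpc (surfactant protein C, of alveolar type 2 cells), 1575 FPKM for Ager (alveolar type 1 cells) and 48579 FPKM for Scgb1a1 (the club cell secretory protein). FPKM summed to between 510933 and 748290 per library, with a median of 578563, and between 13397 and 14811 genes were at or above 1 FPKM. Scgb1a1 alone made up 1.20% to 30.2% of the sum of a library. Read totals are not in the table, so the depth behind each value is unknown. In 3 C3HM mice in room air the ribosomal RNA transcript Rn18s-rs5 was highest, at 25895 and 20766 FPKM in saline mice 1 and 3 and 22813 FPKM in ATG mouse 4, against 11999 in saline mouse 2, the next, and a median of 5740 over all mice. Mouse 1 also had the largest FPKM sum and the largest share of Scgb1a1, and mouse 3 the fewest genes at or above 1 FPKM. Calls that changed without mice 1 and 3, or without all 3 of these mice (an alternative added after the data were seen), are given below.

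The members form gene clusters in part (GRCm38 coordinates, GENCODE M21). Akr1b3 (chr6:34302434-34317478, minus strand) and Akr1b8 (chr6:34354119-34368463, plus strand) lie beside Akr1b10 and Akr1b7 in 120.7 kb. Cbr1 (chr16:93605853-93610505) and Cbr3 (chr16:93683215-93690990) lie on the plus strand within 85.1 kb, and Aldh1a1 (chr19:20492715-20643465, plus) and Aldh1a7 (chr19:20692953-20727562, minus) within 234.8 kb. Aldh3a1 (chr11:61207537-61218421, plus), Cbr2 (chr11:120729489-120732114, minus), Aldh2 (chr5:121566027-121593824, minus) and Akr1a1 (chr4:116636510-116651680, minus) stand alone. All 10 are annotated as protein-coding.

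Relatives in these clusters share sequence, and reads from shared stretches could have been divided between genes. Of the 30-base sequences in the transcripts of Aldh1a7, 14.3% also occur in Aldh1a1. In Akr1b8, 6.81% occur in Akr1b10, 3.07% in Akr1b7 and 2.86% in Gm5649. In Cbr3, 2.47% occur in Cbr1. Elsewhere in the genome, the pseudogene Gm11771 (median 2.93 FPKM) holds 15.1% of the sequences of Cbr2, and Gm38056 (median 4.04 FPKM) and Gm6644 (median 19.1 FPKM) hold 14.2% and 9.81% of those of Akr1b3, so the values of these members are less certain than those of Aldh3a1, which shared none. Gm6684 and C730002L08Rik (Aldh1a1), Gm42879 (Aldh2) and Gm14546 (Akr1b3) overlap members on the opposite strand, and whether counting used strand is not given in the sources used here.

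Promoters are shown for Akr1b8 and Cbr3, the members that rose most in hyperoxia. The RefSeq table used here matched 7 of the 10 members (Aldh1a1, Aldh1a7, Akr1b8, Akr1a1, Cbr1, Cbr2 and Cbr3), and each sequence below is the 250 bases before the RefSeq start (GRCm38.p6), 5′ to 3′ on the gene's plus strand, at chr6:34353896-34354145 for Akr1b8 and at chr16:93682969-93683218 for Cbr3. Capitals mark matches to any of 4 motifs searched on both strands.
Akr1b8: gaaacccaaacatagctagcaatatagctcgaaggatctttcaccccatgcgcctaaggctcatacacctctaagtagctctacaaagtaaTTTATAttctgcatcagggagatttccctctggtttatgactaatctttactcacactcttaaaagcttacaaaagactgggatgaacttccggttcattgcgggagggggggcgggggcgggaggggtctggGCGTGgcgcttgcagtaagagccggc
Cbr3: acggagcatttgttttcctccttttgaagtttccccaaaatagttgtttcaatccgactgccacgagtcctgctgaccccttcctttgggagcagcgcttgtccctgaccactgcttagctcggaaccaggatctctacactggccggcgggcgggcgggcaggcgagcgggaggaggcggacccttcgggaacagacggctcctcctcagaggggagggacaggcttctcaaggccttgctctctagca
The motifs were the core of the antioxidant response element bound by Nrf2 (TGACNNNGC), the AP-1 site (TGANTCA), the core of the dioxin response element bound by the aryl hydrocarbon receptor (GCGTG) and the TATA box (TATAAA), and the first 2 can overlap in a composite site. In Akr1b8, a GCGTG began 26 bases before the start and a TATAAA match lay on the minus strand 159 bases before it. Cbr3 held no match to any of the 4. None of the 7 members held TGACNNNGC in this window, which occurs in 10.16% of 32851 promoters of that length. GCGTG, held by Akr1b8 and Cbr1, occurs in 28.16%, TGANTCA, held by Aldh1a1, in 6.749% and TATAAA, held by Akr1b8 and Aldh1a7, in 12.37%.

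Transcript levels, which FPKM gives per length, differed widely between members. In the 24 mice in room air, Cbr2 was the highest at a median of 3304 FPKM, and over all 48 mice its median rank among all genes was 13. Aldh2 (602), Aldh1a1 (540) and Akr1a1 (423) followed, with ranges that overlapped. Aldh1a7 (66.3), Akr1b3 (53.0) and Cbr1 (46.8) came next, again with overlapping ranges. Cbr3 (17.3), Akr1b8 (15.9) and Aldh3a1 (11.2) were the lowest and overlapped each other. In the 24 mice in hyperoxia the order of the low members changed, as Akr1b8 reached a median of 110.4 FPKM and Cbr3 of 49.4 FPKM, both above the medians of Aldh1a7, Cbr1 and Akr1b3, with overlapping ranges. Cbr2 carried 52.97% to 74.61% of the summed FPKM of the 10 members in room air and 30.56% to 55.66% in hyperoxia, and the median sum went from 5241 to 3289 FPKM.

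**Figure D1:**
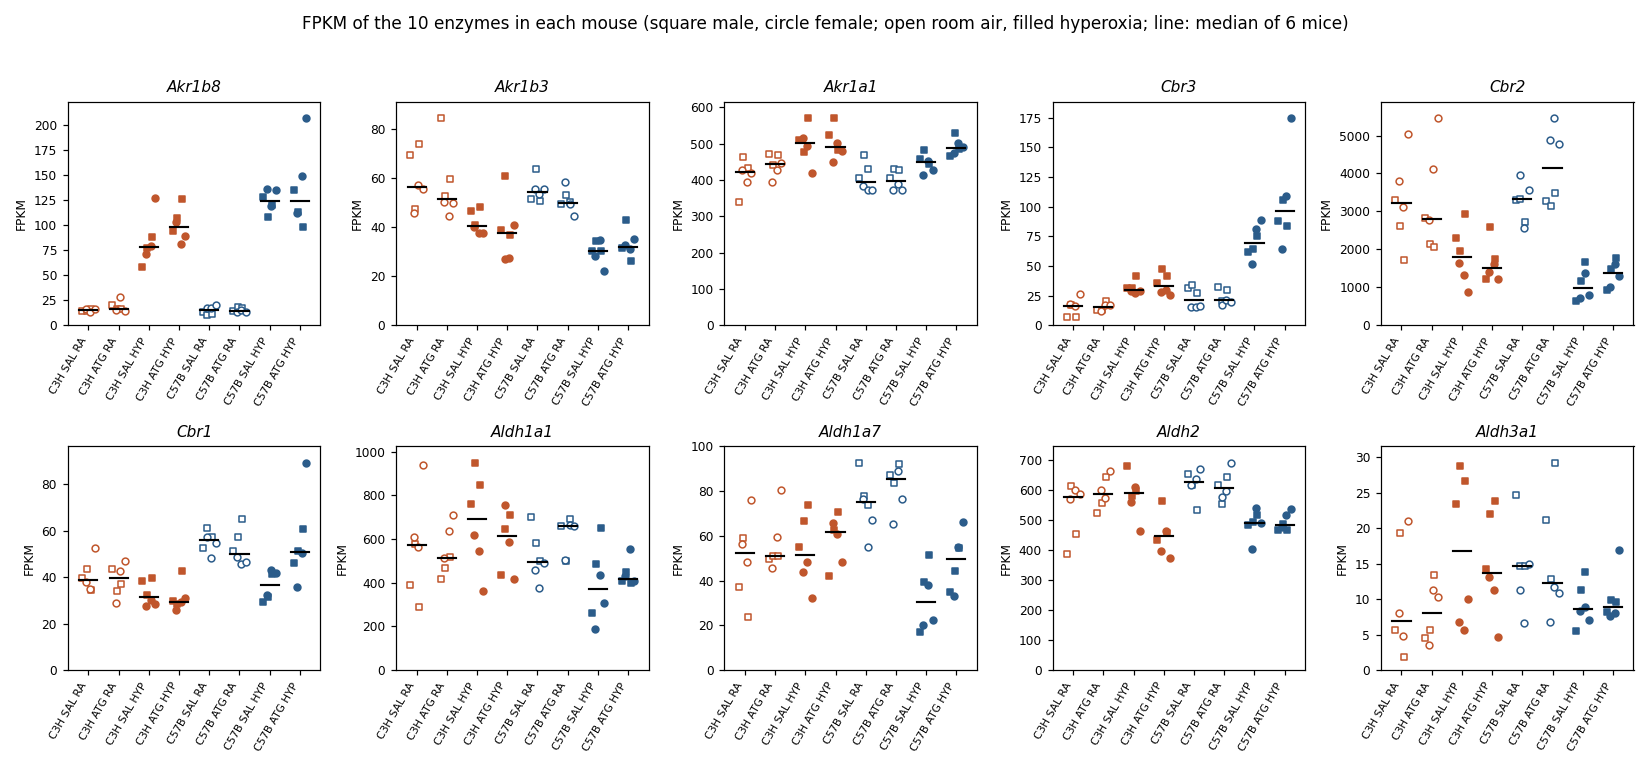
FPKM of each of the 10 enzymes (vertical axes, linear from 0) in every mouse, by strain, injection and air on the horizontal axes. Squares are males, circles are females, open points are room air, filled points are hyperoxia and lines are medians of 6 mice. Akr1b8 and Cbr3 stood higher in hyperoxia and Cbr2 and Akr1b3 lower.

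The first comparison asked what hyperoxia did to these enzymes in saline mice, with 12 mice in hyperoxia against 12 in room air. Akr1b8 rose 6.32-fold and Cbr3 rose 2.59-fold, and Akr1a1 rose by a small amount. Cbr2 fell 2.41-fold, and Akr1b3, Aldh1a7 and Cbr1 fell less. Aldh1a1, Aldh2 and Aldh3a1 did not pass the test. Thus 7 of 10 members passed (limma, Benjamini-Hochberg adjusted p under 0.05), 3 higher and 4 lower. Of the 16321 genes tested 60.1% passed, 31.8% higher and 28.3% lower, so the share of members called was near the background. The median log2 change of the members was -0.11, against 0.01 over all genes. Folds and log2 changes here and below are on the scale of FPKM + 1, which understates changes of low genes, and ± gives a standard error after a log2 change.

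Akr1b8, an aldo-keto reductase that reduces lipid-derived aldehydes and retinal, gave the clearest separation. In saline C3H mice it was at 13.8 to 16.8 FPKM in room air, with a median of 15.7, and at 58.0 to 126.9 FPKM in hyperoxia, with a median of 78.7. In saline C57B mice it went from 10.5 to 20.0 FPKM, with a median of 15.4, to 108.4 to 136.4 FPKM, with a median of 124.1. Every hyperoxic mouse was above every room air mouse, as for 5.61% of genes in the saline mice. The log2 change was 2.66 ± 0.09 (adjusted p = 1.36e-14) and ranged from 2.06 to 3.26 over the 95% intervals of the 2 strains. In the 24 ATG mice, with the spread between mice estimated over all 48, 7 of 10 members and 58.2% of genes were called, and the change was 2.71 ± 0.10 (adjusted p = 1.57e-22), again with no overlap of the groups, as for 8.43% of genes there. Of the 2 neighbours that share sequence with Akr1b8, Akr1b10 fell by 0.96 (adjusted p = 6.21e-08) and Akr1b7 rose by 0.27 (adjusted p = 0.0379).

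Akr1b3, the aldose reductase that turns glucose into sorbitol and also reduces aldehydes, went the other way. It was at 45.9 to 73.9 FPKM (median 55.5) in saline room air mice and at 22.1 to 48.4 FPKM (median 36.2) in saline hyperoxia mice, with some overlap. The log2 change was -0.66 ± 0.08 (adjusted p = 7.26e-07), and in ATG mice -0.59 ± 0.09 (adjusted p = 1.09e-06). The ratio of Akr1b8 to Akr1b3 was 0.165 to 0.637 in the 24 room air mice and 1.24 to 6.09 in the 24 hyperoxic mice. Akr1b3 was thus the more abundant of these neighbours in every room air mouse and Akr1b8 in every hyperoxic mouse. This ratio joins a gene that rose with a gene that fell, and no share over all gene pairs was computed. Akr1a1, which reduces a broad range of aldehydes and takes part in ascorbate synthesis in mice, differed little. It was at a median of 412.2 FPKM in saline room air mice and of 466.2 FPKM in saline hyperoxia mice, with overlapping groups and a log2 change of 0.20 ± 0.06 (adjusted p = 0.00447). Under quantile normalization this value became -0.02 (adjusted p = 0.819), so the direction of Akr1a1 rests on the scaling. In ATG mice, without that normalization, the change was 0.24 ± 0.05 (adjusted p = 3.42e-05).

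Cbr3 and Cbr1 encode closely related cytosolic carbonyl reductases. Cbr3 was at 6.71 to 26.1 FPKM (median 16.5) in saline C3H mice in room air and at 27.6 to 41.3 FPKM (median 30.0) in hyperoxia. In saline C57B mice it went from 15.4 to 34.3 FPKM (median 21.6) to 51.8 to 89.0 FPKM (median 69.4). The groups did not overlap within either strain, as for 10.2% of genes in C3H and 16.1% in C57B, although the C57B room air mice reached above the lowest C3H hyperoxia mice. The log2 change in saline mice was 1.37 ± 0.12 (adjusted p = 1.16e-08), or 1.18 without C3HM mice 1 and 3 (adjusted p = 3.69e-08), which had the 2 lowest values. In ATG mice it was 1.59 ± 0.13 (adjusted p = 6.12e-13). The highest Cbr3 value of the 48 mice was 174.6 FPKM, in a C57BF mouse given ATG in hyperoxia.

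Cbr1, which reduces quinones, prostaglandins and lipid aldehydes, fell in saline mice from a median of 50.3 to 32.2 FPKM, with a log2 change of -0.45 ± 0.08 (adjusted p = 6.40e-05). The groups of all saline mice overlapped. In ATG mice the change was -0.14 ± 0.10 and did not pass the test (adjusted p = 0.261), and in ATG C57B mice the estimate was 0.04 against -0.59 in saline C57B mice. Whether the injection changed the response of Cbr1 to hyperoxia was tested over both strains and was not called (difference 0.31, adjusted p = 0.240). The ratio of Cbr3 to Cbr1 was 0.186 to 0.640 in room air and 0.816 to 2.17 in hyperoxia over all 48 mice, without overlap. It joins a gene that rose with a gene that fell in saline mice, and no share over all gene pairs was computed.

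Cbr2, a mitochondrial carbonyl reductase that is abundant in mouse lung airways, had the most negative log2 change of the members. It was at 1730 to 5038 FPKM (median 3304) in saline room air mice and at 649.1 to 2926 FPKM (median 1348) in saline hyperoxia mice. The groups overlapped over both strains together, and in C57B mice alone they did not (as for 16.3% of genes lower there), with 2568 to 3956 FPKM in room air against 649.1 to 1676 FPKM in hyperoxia. The log2 change was -1.27 ± 0.16 (adjusted p = 1.52e-06), and -1.29 ± 0.16 in ATG mice (adjusted p = 5.39e-09). Cbr2 shares 15.1% of its 30-base sequences with Gm11771, which was at most 10.6 FPKM.

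**Figure D2:**
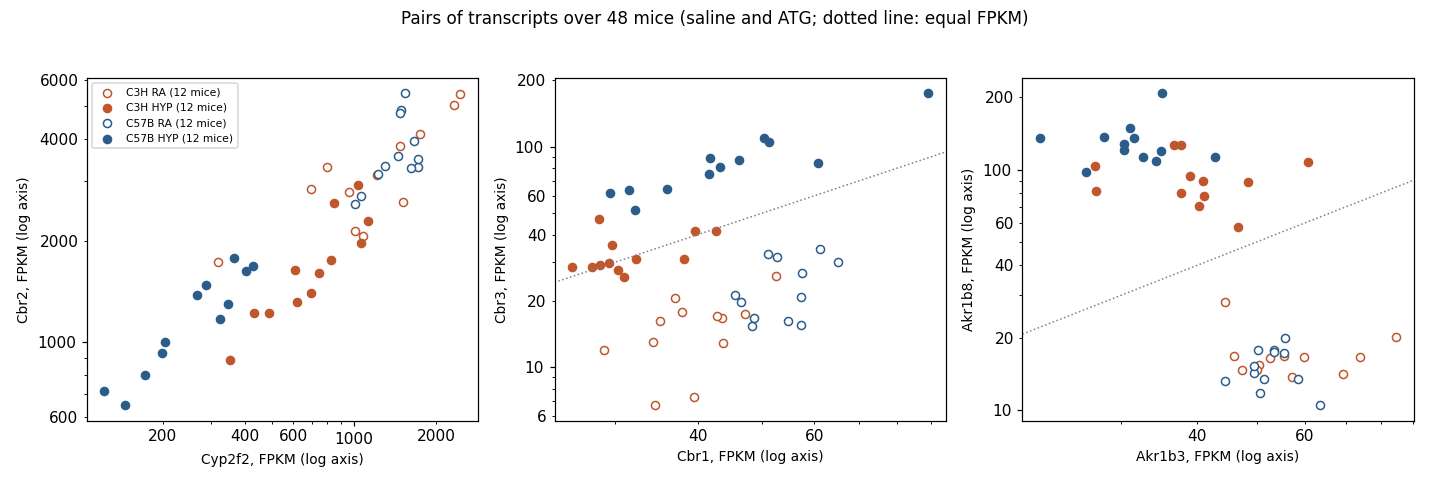
FPKM of Cbr2 against the club cell enzyme Cyp2f2, of Cbr3 against Cbr1 and of Akr1b8 against Akr1b3, on log axes, with 1 point for each of 48 mice. Open points are room air and filled points hyperoxia, and the dotted lines mark equal FPKM. Every hyperoxic mouse was above the line for Akr1b8 and Akr1b3, and every room air mouse was below it in both of those pairs.

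Of the 4 aldehyde dehydrogenases, Aldh1a7 alone was called over both strains. Aldh1a1, which oxidizes retinal and lipid aldehydes, was at a median of 533 FPKM in saline room air mice and 515 FPKM in saline hyperoxia mice. Its log2 change of -0.10 ± 0.16 was not called (adjusted p = 0.611), with a 95% interval from -0.44 to 0.24. Aldh2, the mitochondrial enzyme that clears acetaldehyde and 4-hydroxynonenal, was at medians of 608 and 531 FPKM and was not called either (-0.11 ± 0.07, adjusted p = 0.217). In ATG mice, though, Aldh2 fell by 0.36 (adjusted p = 1.10e-05), and in saline mice it was called under quantile normalization (-0.30, adjusted p = 0.00587), under median ratio scaling (-0.17, adjusted p = 0.0358) and without C3HM mice 1 and 3 (-0.20, adjusted p = 0.0157).

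Aldh1a7, a close relative of Aldh1a1 that acts on acetaldehyde more than on retinal, fell by 0.58 (adjusted p = 0.00526), from a median of 63.1 to 41.7 FPKM with overlapping groups. In ATG mice it fell by 0.37 (adjusted p = 0.0337). Aldh3a1, which oxidizes aromatic and medium-chain aldehydes and is a classic target of the aryl hydrocarbon receptor, varied widely between mice of the same air. It was at 1.87 to 24.7 FPKM in saline room air mice and at 5.47 to 28.7 FPKM in saline hyperoxia mice, and its log2 change of 0.10 had a 95% interval from -0.44 to 0.65. At this spread a change of that size in either direction was not detectable.

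The second question was whether the strains responded to hyperoxia alike. In saline C3H mice, 6 of 10 members were called, 3 higher (Akr1b8, Cbr3 and Akr1a1) and 3 lower (Cbr2, Akr1b3 and Cbr1), where 37.8% of genes were called, 25.3% higher and 12.5% lower. Higher and lower calls over all genes were more even under quantile normalization (3063 and 2968) and median ratio scaling (2932 and 3085), where Akr1a1 was not called under either (0.06, adjusted p = 0.603, and 0.11, adjusted p = 0.298) nor Cbr2 under the first (-0.62, adjusted p = 0.0801). In saline C57B mice, 7 of 10 were called, 2 higher (Akr1b8 and Cbr3) and 5 lower (Cbr2, Aldh1a7, Akr1b3, Cbr1 and Aldh2), where 55.5% of genes were, 25.5% higher and 30% lower. Without C3HM mice 1 and 3, Akr1b3 (-0.25, adjusted p = 0.127) and Akr1a1 (0.18, adjusted p = 0.118) were no longer called in C3H. The call of Cbr1 in C3H (-0.30, adjusted p = 0.0418) was lost when any 1 of mice 1, 2, 7, 8, 27, 31, 32 or 33 was left out, with adjusted p from 0.0512 to 0.132. Aldh3a1 was not called in C3H (0.78, adjusted p = 0.107), but was without mouse 2 (1.14, adjusted p = 0.00620) or mouse 27 (1.04, adjusted p = 0.0310), and without both mice 1 and 3 the value was 0.04. Aldh1a1 in C57B (-0.51, adjusted p = 0.0694) was called without mouse 21 (-0.65, adjusted p = 0.0227) or mouse 44 (-0.65, adjusted p = 0.0238). It was also called under quantile normalization (-0.68, adjusted p = 0.0280) and in the fit of all 48 mice (-0.51, adjusted p = 0.0303). In ATG C57B mice Aldh1a1 was called as well (-0.47, adjusted p = 0.0481).

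**Figure D3:**
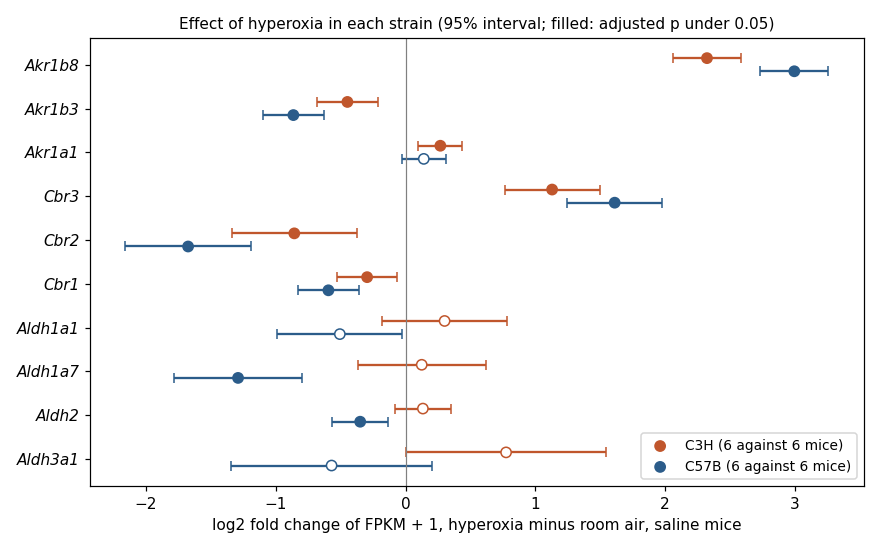
Log2 fold change of FPKM + 1 for hyperoxia minus room air (horizontal axis) of each enzyme in saline C3H mice and saline C57B mice, 6 against 6 in each strain. Bars are 95% intervals and filled points have an adjusted p under 0.05. Akr1b8 stood at 2.32 in C3H and 3.00 in C57B, and Aldh1a7 at 0.12 and -1.29.

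The difference between strains was tested itself, as the effect in C3H minus the effect in C57B. In saline mice it was called for 3 of 10 members, where 11.5% of genes were called, 8.71% with the C3H effect above that in C57B and 2.81% below. Over all genes the median difference was 0.15, and it was -0.01 under quantile normalization and 0.00 under median ratio scaling. Akr1b8 rose less in C3H (difference -0.67 ± 0.18, adjusted p = 0.0193). Aldh1a7 was at 0.12 in C3H and fell by 1.29 in C57B (difference 1.42 ± 0.33, adjusted p = 0.0104), where it went from 55.3 to 92.6 FPKM in room air to 17.2 to 51.6 FPKM in hyperoxia with no overlap. In C57B, 16.3% of genes were lower without overlap. Aldh2 differed by 0.48 (adjusted p = 0.0391), but this call was lost when any 1 of 18 mice (1, 3, 7, 9, 13, 14, 19, 20, 25, 26, 27, 31, 32, 37, 38, 39, 43 and 45) was left out, with adjusted p from 0.0505 to 0.0758. Without C3HM mice 1 and 3 together none of the 3 was called, at -0.65 for Akr1b8 (adjusted p = 0.0537), 1.09 for Aldh1a7 (adjusted p = 0.0561) and 0.30 for Aldh2 (adjusted p = 0.168), while Cbr3 (-0.86, adjusted p = 0.0177) and Akr1b3 (0.61, adjusted p = 0.0208) were. Leaving out mouse 2 added Aldh3a1 (1.71, adjusted p = 0.010) and Aldh1a1 (0.94, adjusted p = 0.0477), mouse 27 added Aldh3a1 (1.61, adjusted p = 0.0404), mouse 21 added Cbr2 (0.98, adjusted p = 0.0433) and mouse 44 added Akr1b3 (0.49, adjusted p = 0.0452).

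The 24 ATG mice, which share no lungs with the saline mice, gave the same contrast, with the spread estimated over all 48 mice and so shared with the saline mice. There Akr1b8 rose less in C3H (difference -0.64 ± 0.20, adjusted p = 0.0343), and so did Cbr3 (-0.96 ± 0.26, adjusted p = 0.0138), where 10.3% of genes were called. Aldh1a7 stood at 0.06 in C3H and -0.80 in C57B, a difference of 0.86 that did not pass the test (adjusted p = 0.0618). Aldh2 differed by -0.10 (adjusted p = 0.701), opposite in sign to the saline mice. With saline and ATG mice joined in a fit of all 48, 6 of 10 members were called, where 27.4% of genes were. Akr1b8 (-0.66 ± 0.14, adjusted p = 0.000724) and Cbr3 (-0.72 ± 0.19, adjusted p = 0.00356) rose less in C3H. Aldh1a7 (1.14 ± 0.21, adjusted p = 0.000131), Aldh3a1 (1.30 ± 0.35, adjusted p = 0.00579), Aldh1a1 (0.70 ± 0.20, adjusted p = 0.00903) and Cbr2 (0.75 ± 0.22, adjusted p = 0.00989) were higher in C3H relative to C57B. In the same fit 5 of 7 club cell, 6 of 7 ciliated cell and 5 of 8 alveolar type 2 cell markers were called higher in C3H relative to C57B (median differences 1.81, 0.99 and 0.70). So were 3 of 5 endothelial markers, with 1 lower (median 0.75). Lower were 3 of 6 alveolar macrophage markers (median -0.38) and 8 of 14 listed Nrf2 targets that passed the filter in saline mice of both airs (median -0.44). The part of these genes and cells in the enzymes' differences was not tested. Without mice 1 and 3 the same 6 were called, at -0.91 for Cbr3 (adjusted p = 0.000230), 0.93 for Aldh3a1 (adjusted p = 0.0314) and 0.57 for Aldh1a1 (adjusted p = 0.0405). Without mouse 4 as well, Aldh1a1 (0.55, adjusted p = 0.0536) was no longer called and Akr1b3 was (0.38, adjusted p = 0.0274). In ATG mice alone, leaving out all 3 also ended the call of Akr1b8 (-0.60, adjusted p = 0.0596), and leaving out mice 1 and 3, which leaves the log2 values there as they are, added Aldh1a7 (0.86, adjusted p = 0.0406) and, for hyperoxia in ATG C3H mice, Aldh3a1 (0.78, adjusted p = 0.0359 against 0.0734 with them).

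Among saline mice in hyperoxia, 6 of 10 members were called between the strains, where 27.2% of genes were, 16.1% higher in C3H and 11.1% lower. Aldh1a1 (0.86 ± 0.23, adjusted p = 0.00881), Aldh1a7 (0.79 ± 0.24, adjusted p = 0.0165), Cbr2 (0.77 ± 0.23, adjusted p = 0.0173) and Akr1b3 (0.48 ± 0.11, adjusted p = 0.00367) were higher in C3H, and Cbr3 (-1.13 ± 0.18, adjusted p = 7.81e-05) and Akr1b8 (-0.61 ± 0.13, adjusted p = 0.00121) were lower. Cbr3 was at 27.6 to 41.3 FPKM in C3H against 51.8 to 89.0 FPKM in C57B, and Akr1b3 at 37.6 to 48.4 against 22.1 to 34.9 FPKM, and neither pair of ranges overlapped. Groups were apart in this way for 5.99% of genes with C3H higher and 4.78% with C3H lower. Without C57BM mouse 19, Aldh1a7 (0.57, adjusted p = 0.0518) and Cbr2 (0.59, adjusted p = 0.0578) were no longer called, nor was Cbr2 without C3HF mouse 31 (0.67, adjusted p = 0.0545). Aldh2 (0.25, adjusted p = 0.0815) was called without mouse 2 (0.25, adjusted p = 0.0331) or mouse 33 (0.31, adjusted p = 0.0356), and also without mice 1 and 3 (0.25, adjusted p = 0.0299). In ATG mice in hyperoxia, 3 of 10 members were called, where 24% of genes were, namely Cbr3 (-1.52, adjusted p = 4.74e-08), Cbr1 (-0.78, adjusted p = 8.62e-05) and Akr1b8 (-0.40, adjusted p = 0.0361), all lower in C3H. Cell markers differed between the strains in the same saline hyperoxia mice. Of 7 club cell markers 4 were called higher in C3H (median log2 difference 1.75, with summed medians of 32894 FPKM in C3H and 13624 in C57B). So were 3 of 5 endothelial (median 1.21), 3 of 6 alveolar type 1 (median 0.44) and 2 of 7 ciliated cell markers (median 0.57). Of 6 alveolar macrophage markers 3 were higher and 2 lower, and of 8 alveolar type 2 cell markers 1 was higher and 1 lower. Of 5 neutrophil markers 0 were called (median -1.45). Of these 14 Nrf2 targets 11 were lower (median -0.71). The part of these cells and genes in the differences of the enzymes was not tested.

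In the 12 saline mice in room air, which ask for strain and sex differences at baseline, Cbr1 alone was called of the 10, and it was lower in C3H. Of all genes 11.8% were called, 7.87% lower in C3H. It was at 34.5 to 52.4 FPKM in C3H and 48.2 to 61.3 FPKM in C57B, with overlap, and a log2 difference of -0.45 ± 0.11 (adjusted p = 0.0223). It was not called under median ratio scaling (-0.34, adjusted p = 0.0646), without C3HM mice 1 and 3 (-0.37, adjusted p = 0.116), or without any 1 of mice 3, 14, 15, 25, 26, 37 or 39 (adjusted p from 0.0525 to 0.0610). Cbr3 (-0.65, adjusted p = 0.0524) and Aldh1a7 (-0.62, adjusted p = 0.0631) just missed the threshold. Both were called without C3HM mouse 2 (-0.84, adjusted p = 0.000942, and -0.78, adjusted p = 0.00507) or without C3HF mouse 27 (-0.75, adjusted p = 0.0351, and -0.71, adjusted p = 0.0456), and without mouse 2 so were Aldh2 (-0.32, adjusted p = 0.0134) and Aldh3a1 (-1.10, adjusted p = 0.0471). Leaving out mouse 2 keeps mice 1 and 3 as the only C3HM mice, and without those 2 none of the 4 was called, at -0.27 for Cbr3 (adjusted p = 0.320), -0.30 for Aldh1a7 (adjusted p = 0.304), -0.05 for Aldh2 (adjusted p = 0.788) and 0.01 for Aldh3a1 (adjusted p = 0.996). Akr1b8 did not separate the strains at baseline (0.07, 95% interval -0.15 to 0.28). In the same mice, 6 of 8 alveolar type 2 cell markers (median -0.69) and 4 of 5 neutrophil markers (median -1.04) were called lower in C3H. Of 6 alveolar type 1 cell markers 4 were called higher (median 0.49). None of the 7 club cell, 7 ciliated cell and 5 endothelial markers was called. The part of these cells in the difference of Cbr1 was not tested.

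No member was called by limma between the sexes at baseline (0.669% of genes were), for the interaction of strain and sex (0% of genes), or for the interaction of hyperoxia and sex (0.0368% of genes). At an unadjusted p under 0.05 1, 4 and 3 members passed, and 3617 (23.3%), 2538 (16.3%) and 2964 (18.2%) genes. For the interaction of strain and sex, the C3HM mice differed widely from each other. Cbr3 was at 7.32, 16.7 and 6.71 FPKM in C3HM mice 1, 2 and 3, at 16.3 to 26.1 in C3HF, at 26.9 to 34.3 in C57BM and at 15.4 to 16.3 in C57BF. Its interaction of -1.91 (adjusted p = 0.121) became -2.29 (adjusted p = 0.00104) without mouse 2, where Aldh1a1 (-1.45, adjusted p = 0.0127) and Aldh1a7 (-1.27, adjusted p = 0.0207) were called as well. Without mice 1 and 3 in place of mouse 2, it was -1.15 for Cbr3 (adjusted p = 0.391), -0.67 for Aldh1a1 (adjusted p = 0.768) and -0.29 for Aldh1a7 (adjusted p = 0.914). Without mouse 2, Aldh2 was called between the sexes (-0.29, adjusted p = 0.0271) and for hyperoxia by sex (0.42, adjusted p = 0.0478), and without mice 1 and 3 it was called for neither (-0.013, adjusted p = 0.959, and 0.14, adjusted p = 0.697). Without mouse 19, hyperoxia by sex was called for Cbr2 (1.14, adjusted p = 0.0344) and Aldh1a1 (1.03, adjusted p = 0.0460).

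Aldh3a1 differed between the sexes in the C3H mice in hyperoxia, and since gene, strain and air were picked after its values were seen, these values are a description with no test. Over saline and ATG mice it was at 14.2 to 28.7 FPKM (median 23.7) in 6 males and at 4.62 to 13.1 FPKM (median 8.37) in 6 females, without overlap, as for 0.606% of genes. The log2 difference was 1.38 ± 0.35 in C3H mice and 0.04 ± 0.35 in C57B mice in hyperoxia. Cbr3 did not overlap between the sexes in C3H either, at 31.0 to 47.1 FPKM in males and 25.7 to 29.7 FPKM in females, with a log2 difference of 0.40. In the same C3H mice the median log2 difference, males minus females, was -1.97 for 5 neutrophil markers and -0.48 for 6 alveolar macrophage markers. It was 0.36 for 7 ciliated cell markers and 0.32 for 8 alveolar type 2 cell markers. The part of these cells was not tested.

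ATG, which was compared with saline within each air over strains and sexes, gave no call for any member. In room air 0 of 10 members were called, where 0.0185% of genes were, and in hyperoxia 0 of 10, where 5.38% of genes were. At an unadjusted p under 0.05, limma gave 0 members in room air, where 6.64% of genes passed, and 4 in hyperoxia, where 20.5% did. In room air the widest 95% interval was that of Aldh3a1 (-0.63 to 0.59), and Akr1b8 stood at 0.13 (-0.05 to 0.32). In hyperoxia the 4 whose 95% intervals did not cross 0 were at 0.41 for Aldh1a7 (0.10 to 0.71, adjusted p = 0.102), 0.31 for Cbr3 (0.05 to 0.58, adjusted p = 0.151), 0.24 for Cbr1 (0.03 to 0.45, adjusted p = 0.169) and -0.18 for Aldh2 (-0.31 to -0.05, adjusted p = 0.0945). Leaving out 1 mouse brought some of these under the threshold, namely Aldh1a7 without mouse 21 (0.49, adjusted p = 0.0376), Cbr1 (0.31, adjusted p = 0.0475) and Cbr3 (0.41, adjusted p = 0.0455) without mouse 46, and Aldh2 without mouse 11 (-0.21, adjusted p = 0.0497). Aldh2 was also called in hyperoxia without mice 1 and 3 (-0.18, adjusted p = 0.0472) and without mice 1, 3 and 4 (-0.18, adjusted p = 0.0452), and 0 members were called in room air without all 3. The interaction of ATG with hyperoxia was called for 0 of 10 members (2.77% of genes), or for Aldh2 without mouse 2 (-0.30, adjusted p = 0.0253), and that of ATG with strain in room air for 0 of 10 (0% of genes). At an unadjusted p under 0.05 these counts were 2 and 0 members by limma, against 18.8% of genes and 743 genes (4.58%).

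**Figure D4:**
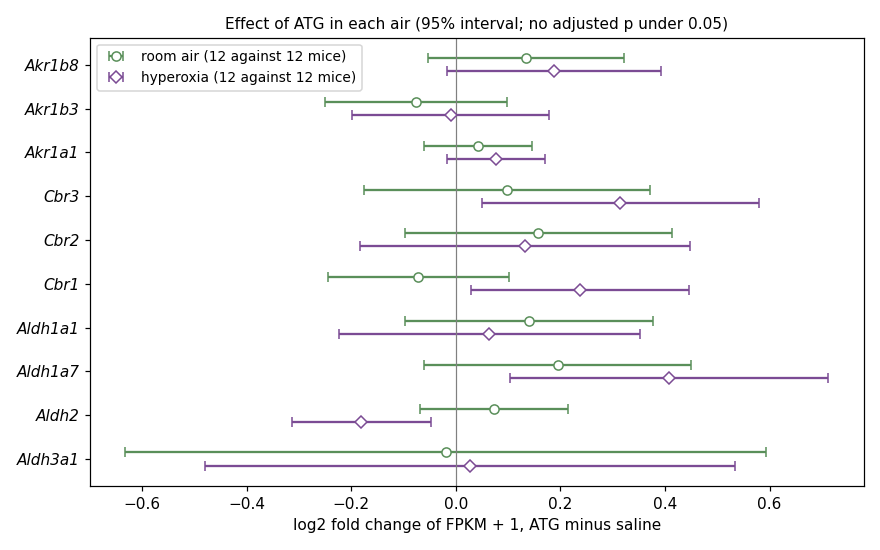
Log2 fold change of FPKM + 1 for ATG minus saline (horizontal axis) of each enzyme in room air and in hyperoxia, 12 against 12 mice each. Bars are 95% intervals that are not adjusted for the number of genes. All intervals in room air crossed 0, and 4 in hyperoxia did not, with no adjusted p under 0.05.

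Other enzymes of these families went in both directions in hyperoxia in saline mice. Of 16 other aldehyde dehydrogenases 14 were expressed enough to be tested. Aldh1a3, a retinal dehydrogenase, and Aldh1l2, of mitochondrial folate metabolism, passed the filter on low values through the hyperoxic mice alone and so had to be higher there, and they are described without a test. Aldh1a3 had a highest value of 0.540 FPKM in room air and a median of 1.67 and a highest value of 15.2 FPKM in hyperoxia, and Aldh1l2 was at 0.0322 to 0.484 FPKM in room air and 1.11 to 4.64 FPKM in hyperoxia. Of the other 12, 2 rose, 5 fell and 5 were not called, with a median log2 change of -0.21, where 31.8% of all genes were called higher and 28.3% lower. Aldh18a1 (1.01, adjusted p = 2.13e-06), of proline synthesis, rose. Aldh6a1, of valine breakdown, fell by 0.88 (adjusted p = 3.11e-05), Aldh3a2, the fatty aldehyde dehydrogenase, by 0.59 (adjusted p = 9.97e-07) and Aldh3b1 by 0.57 (adjusted p = 2.82e-05).

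Of 14 other aldo-keto reductases 7 passed the filter in both airs, and 3 rose, 3 fell and 1 was not called (median -0.21), against the same shares of all genes. Without C3HM mice 1 and 3, 1 rose and 3 fell. Akr1c14 (1.46, adjusted p = 3.67e-06), a hydroxysteroid dehydrogenase, rose most, with smaller rises of Akr1c19 (0.48, adjusted p = 0.0332) and Akr1b7 (0.27, adjusted p = 0.0379). Akr1b10 (-0.96, adjusted p = 6.21e-08), Akr7a5 (-0.49, adjusted p = 0.000151) and Akr1e1 (-0.41, adjusted p = 0.0104) fell. Akr1b8 thus rose between 2 neighbours in its cluster, Akr1b3 and Akr1b10, that fell.

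Of 14 other enzymes of carbonyl and aldehyde metabolism, all tested, 2 rose, 6 fell and 6 were not called (median -0.20), again against 31.8% of all genes higher and 28.3% lower. Esd, which completes glutathione-dependent formaldehyde oxidation, rose by 2.17 (adjusted p = 3.85e-14). It went from 60.3 to 114.4 FPKM in room air to 208.9 to 731.1 FPKM in hyperoxia without overlap, as for 5.61% of genes. Dcxr, a diacetyl and xylulose reductase, rose by 0.49 (adjusted p = 0.00410). The aldehyde oxidase Aox3 fell by 1.95 (adjusted p = 1.20e-07), the alcohol dehydrogenase Adh1 by 1.58 (adjusted p = 2.10e-07) and the aldehyde oxidase Aox1 by 0.71 (adjusted p = 0.000809).

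Listed targets of Nrf2 rose together, 14 of the 14 that passed the filter in both airs. Their median was 1.29 against 0.01 over all genes, of which 31.8% were called higher. The list was picked with earlier results of these data known, so the count is a description and does not test Nrf2. Gclc, of glutathione synthesis (2.62, adjusted p = 8.77e-13), and Srxn1, sulfiredoxin (2.23, adjusted p = 1.29e-13), rose most. The enzymes followed here ran from -1.27 for Cbr2 to 2.66 for Akr1b8, and the part of Nrf2 in their changes was not tested. The fifteenth, the cystine transporter Slc7a11, passed the filter through the hyperoxic mice alone, at 0.166 to 0.979 FPKM in room air and 3.17 to 15.7 FPKM in hyperoxia, and is given without a test. Of 6 listed targets of the aryl hydrocarbon receptor 4 were tested. Nqo1 (1.61, adjusted p = 1.36e-09), which is also a target of Nrf2, and Tiparp (0.76, adjusted p = 3.64e-06) rose, while Cyp1a1, the best known of them, fell by 1.33 (adjusted p = 1.54e-07), and Aldh3a1 was at 0.10. For the difference between strains in saline mice, 0 of these 14 Nrf2 targets were called higher in C3H and 5 lower, with Gclm at -1.05 (adjusted p = 3.53e-05). Their median was -0.51 against 0.15 over all genes, of which 8.71% were called higher and 2.81% lower. The count of 5 became 7 under quantile normalization, 8 under median ratio scaling and 6 without C3HM mice 1 and 3. In the same contrast the enzymes ran from -0.67 for Akr1b8 to 1.42 for Aldh1a7, and the part of Nrf2 was not tested.

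**Figure D5:**
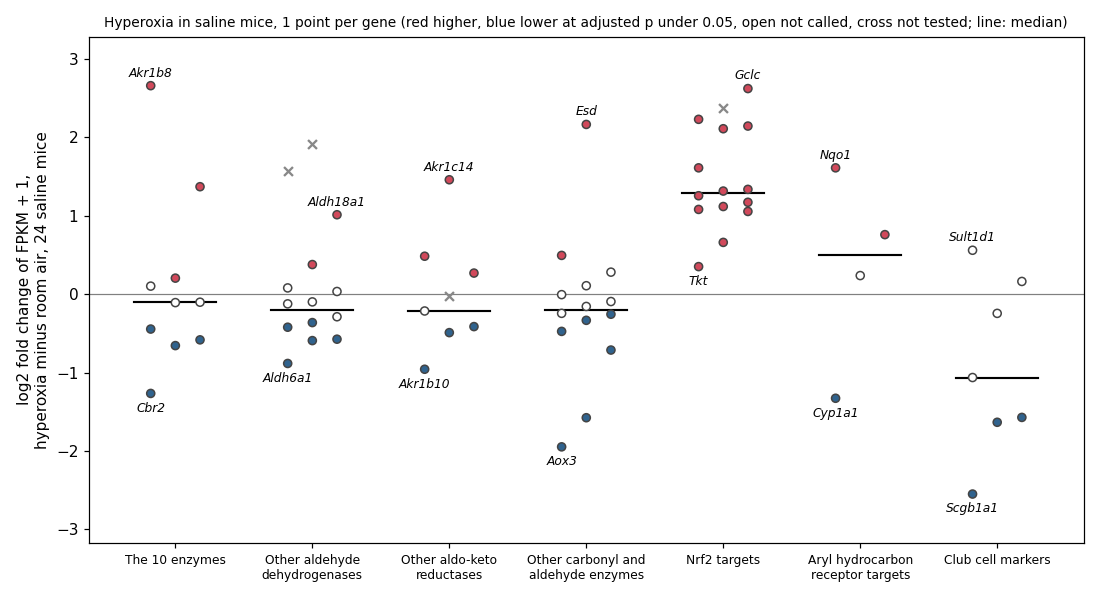
Log2 fold change of FPKM + 1 for hyperoxia minus room air in the 24 saline mice (vertical axis), with 1 point per gene in each list. Red points were higher and blue points lower at an adjusted p under 0.05, open points were not called, lines are medians, and crosses, left out of the medians, are genes that reached 1 FPKM in fewer than 3 mice of either air. The points of the 10 enzymes run from -1.27 (Cbr2) to 2.66 (Akr1b8), and those of the 14 Nrf2 targets tested are above 0.

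Some markers of airway cells were lower where Cbr2 and Aldh1a7 were. Of 7 club cell markers 3 fell in hyperoxia in saline mice and none rose, namely Scgb1a1 (-2.55, adjusted p = 5.18e-10), Scgb3a2 (-1.63, adjusted p = 7.94e-05) and Cyp2f2 (-1.57, adjusted p = 5.24e-06). Of all genes 28.3% were called lower there. Under quantile normalization 2 of the 7 were called lower, and the median log2 change of the 7 was -0.28 in place of -1.06. The summed FPKM of the 7, most of it Scgb1a1, had medians of 98645 in C3H and 112213 in C57B in room air and of 32894 and 13624 in hyperoxia. The fall was larger in C57B than in C3H for the same 3 genes, with differences of 1.37 (adjusted p = 0.0211), 2.37 (adjusted p = 0.014) and 2.06 (adjusted p = 0.00669), though under either other scaling 2 of the 3 were called. Of 7 ciliated cell markers 6 fell and none rose, and their sum went from a median of 726 to 186 FPKM in saline mice. In C3H alone, 1 of 7 club cell markers (Scgb1a1, -1.86, adjusted p = 1.60e-05) and 2 of 7 ciliated cell markers were called lower, with medians of 0.72 and -0.54, while Cbr2 fell by 0.86 and Aldh1a7 was at 0.12. Of all genes 12.5% were called lower in C3H. In C57B alone, 3 of 7 and 7 of 7 were lower, with medians of -2.60 and -1.36, where 30% of all genes were. The part of these cells in the falls of Cbr2 and Aldh1a7 was not tested.

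Markers of other cells moved too, in a comparison where 31.8% of all genes were called higher and 28.3% lower. Of 8 markers of alveolar type 2 cells 7 fell and Sftpb rose. Of 6 markers of alveolar type 1 cells 4 fell. Of 5 neutrophil markers all rose (4 of 5 without C3HM mice 1 and 3), led by Retnlg (2.49, adjusted p = 0.000219), and their sum ranged from 159 to 6201 FPKM in saline hyperoxia mice against 133 to 767 FPKM in room air. Of 6 heart muscle genes 5 fell, and of the 4 red blood cell genes tested all fell, led by Hbb-bt (-4.50, adjusted p = 5.71e-11). Of 6 alveolar macrophage markers 4 rose (3 without C3HM mice 1 and 3) and 2 fell. Of 5 endothelial markers 1 rose and 2 fell, or 0 and 3 under quantile normalization. The part of these cells in the changes of the 10 enzymes was not tested. Genes of stratified squamous epithelium, which ALDH3A1 marks in the cornea and upper digestive tract, were near 0, with Krt4 at most 0.397, Krt5 at most 0.495 and Krt13 at most 1.15 FPKM in any mouse. Their sum over 7 genes was 0.0716 to 3.85 FPKM in the saline mice, and Krt14, the one tested, was not called.

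As a description over 48 mice, and without a test because the mice share conditions, each member was ranked against 16994 genes by Pearson's r on log2(FPKM + 1). Akr1b8 was most like Slc3a2 (0.979), which pairs with the cystine transporter, Rrp12 (0.977) and Hspa9 (0.977), a mitochondrial chaperone. Cbr3 was most like Polr1c (0.920), the pentose phosphate enzyme Pgd (0.920) and Ttc9 (0.920). Cbr2 was most like Cyp2f2 (0.920), Aox3 (0.909) and Ccdc129 (0.906), and Aldh1a7 like Cckar (0.919), Fam161a (0.881) and Acss1 (0.872). Aldh1a1 was most like Rp1 (0.805), Mut (0.790) and Cdkl2 (0.789), Aldh3a1 like Spag6l (0.757), Itpka (0.755) and Plin5 (0.754), and Aldh2 like Gstm2-ps1 (0.828), Cd36 (0.804) and Ctsf (0.786). Akr1b3 was most like Tnfsf12 (0.917), Dpysl2 (0.894) and Gm26723 (0.893), Akr1a1 like Ywhae (0.867), Atp6v1c1 (0.863) and Sdhc (0.855), and Cbr1 like Pigx (0.772), Shh (0.765) and Use1 (0.764). Among the members, Akr1b8 and Cbr3 varied together (0.789), as did Aldh1a1 with Aldh1a7 (0.784) and Cbr2 with Aldh1a7 (0.766). Akr1b8 went opposite to Cbr2 (-0.818) and Akr1b3 (-0.778).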

How the data were processed

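RNA from 48 lungs was sequenced in paired reads of 150 bases. The authors aligned reads to mm10 with GSNAP and made the deposited FPKM with Cufflinks, per the submitters' processing notes and the study's methods. The annotation release and the handling of reads with several matches are not given in the sources used here. FPKM are not counts, so no count test was run. Low values of the same genes fell on a common step in 16.0% to 30.6% of cases, so reads were not recovered and depth is unknown. Akap5 was left out for failed estimates in 7 mice, and 20454 genes listed at 0 in all mice were not tested.

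Linear models of log2(FPKM + 1) were made by limma (version 3.58.1, under R version 4.3.3, eBayes with a trend) for genes at or above 1 FPKM in at least 3 of the mice fitted, with Benjamini-Hochberg adjustment over all genes tested and a threshold of 0.05. Strain and sex at baseline were fitted in 12 saline mice in room air, hyperoxia in 24 saline mice, ATG in 24 room air mice, and ATG in hyperoxia in all 48 mice. Hyperoxia in ATG mice, strain in both injections together and sex within hyperoxia were added after the data were seen and use the fit of all 48 mice. Nothing in the sources used here says whether the 3 mice of a group came from separate litters or cages, and p-values measure the spread between mice. The fits were tested on simulated data.

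The 10 members and all lists were chosen with earlier results of these data known. Of the lists, genes are named where they passed the threshold and were among the 3 largest rises or falls of their list, and for each member the 3 genes with the highest correlation are named. Coordinates come from GENCODE M21, promoters from RefSeq (GRCm38.p6). Identifiers of 47144 genes matched. Alternatives were a pseudocount of 0.1, a filter at 0.1 FPKM or none, quantile normalization, median ratio scaling, no trend, all 48 mice in 16 groups, and leaving out mice.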

Additional observations from a re-analysis of the deposited data

Results flagged for a closer look

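In 4 of 80 groups of 6 mice (each enzyme in each strain, injection and air, with the sexes together), 1 mouse lay apart from the other 5 by more than Dixon's 95% limit, and chance gives about 1 in 20 groups, here 4. Aldh3a1 in C57B mice given ATG in hyperoxia was at 16.9 FPKM in C57BF mouse 48 and at 7.68 to 9.90 in the others, a gap of 0.759 of the range. Aldh1a1 in the same group was at 556 FPKM in C57BF mouse 47 and at 399 to 452 in the others, a gap of 0.665. Cbr1 in C3H mice given ATG in hyperoxia was at 42.6 FPKM in C3HM mouse 12 and at 25.8 to 30.9 in the others, a gap of 0.7. Cbr3 in saline C3H mice in hyperoxia was at 41.3 FPKM in C3HM mouse 9 and at 27.6 to 31.1 in the others, a gap of 0.742.

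The effect of hyperoxia in saline mice differed between the strains, by limma's interaction term, for 3 enzymes. The difference, C3H minus C57B on the log2 scale, was 1.42 for Aldh1a7 (adjusted p = 0.0104), 0.48 for Aldh2 (adjusted p = 0.0391) and -0.67 for Akr1b8 (adjusted p = 0.0193). Without C3HM mice 1 and 3 none of these was called (adjusted p from 0.0537 for Akr1b8 and 0.0561 for Aldh1a7 to 0.168 for Aldh2), and the call of Aldh2 was also lost without any 1 of 18 mice, under either other filter, under either other scaling and without a trend.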

How the results depend on the processing

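No paired analysis was possible because every mouse has a number of its own. Over the alternatives listed at the outset, single mice left out aside, 986 of the values for single enzymes kept their side of the threshold, of which 49, none of them called, changed sign (24 of these without C3HM mice 1 and 3). Of the others 18 lost a call, 15 gained one and 1, called before, turned, namely Akr1a1 for hyperoxia under quantile normalization (-0.018). With ATG in place of saline mice, chosen after seeing the data, Aldh2 in C3H (-0.41), Cbr1 in C57B (0.040) and Aldh2 for hyperoxia by strain (-0.10) turned, each called in one of the 2 sets, and of values called in neither, Cbr1 (-0.35) and Akr1a1 (-0.12) for hyperoxia by strain and Aldh2 for strain in hyperoxia (-0.14) changed sign. The causes were not tested. The number of enzymes called between strains at baseline, 1, became 0 under median ratio scaling and without C3HM mice 1 and 3, and 3 in the fit of all 48 mice. That for strain by sex, 0, became 1 in the fit of all 48 mice (Cbr3). That for ATG in hyperoxia, 0, became 1 under median ratio scaling, without C3HM mice 1 and 3, and without these and ATG mouse 4 (Aldh2 each time). Hyperoxia by strain went from 3 to 6 with both injections, and strain in hyperoxia from 6 to 3 in ATG mice.

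Leaving out 1 mouse at a time gave 0 to 5 enzymes for strain at baseline, 0 to 1 for sex, 0 to 3 for strain by sex, 7 to 7 for hyperoxia, 5 to 6 in C3H, 7 to 8 in C57B, 2 to 5 for hyperoxia by strain, 0 to 2 for hyperoxia by sex, 4 to 7 for strain in hyperoxia, 0 to 2 for ATG in hyperoxia and 0 to 1 for ATG by hyperoxia. Without C3HM mouse 2, calls over all genes went from 1832 to 4021 for strain at baseline, from 104 to 3640 for sex, from 0 to 2741 for strain by sex, from 1880 to 3242 for hyperoxia by strain, from 6 to 1270 for hyperoxia by sex, from 3 to 32 for ATG in room air, from 0 to 17 for ATG by strain and from 470 to 1093 for ATG by hyperoxia. ATG in hyperoxia went from 914 to between 530 and 607 without mouse 8, 10, 24 or 36, and ATG by hyperoxia to between 243 and 296 without mouse 8, 16, 24, 27, 28, 36, 37 or 42. Hyperoxia by sex went to 1051 without mouse 19 and otherwise to between 2 and 16, and sex to as few as 20 (without mouse 25). The fit of all 48 mice gave 2982 genes for strain at baseline, 1915 for sex, 748 for strain by sex, 2994 for hyperoxia by strain and 306 for hyperoxia by sex. Without C3HM mice 1 and 3, sex gave 30 genes, strain by sex 1 and ATG in room air 5, and without ATG mouse 4 as well ATG by hyperoxia gave 305. Without a filter sex gave 40 genes, strain by sex 2, ATG in room air 5, ATG by strain 2 and ATG by hyperoxia 313. The lower filter gave 60 genes for sex and 2 for strain by sex, which gave 5 with a pseudocount of 0.1 and 2 without a trend. Median ratio scaling gave 2 genes for hyperoxia by sex, both injections together 4652 for hyperoxia by strain, and hyperoxic in place of room air mice 234 for ATG by strain.

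Scaling moved the balance of calls. Higher and lower calls were 609 and 1223 for strain at baseline (974 and 930 under quantile normalization, 927 and 983 under median ratio scaling), 4130 and 2039 for hyperoxia in C3H (3063 and 2968, 2932 and 3085), 1422 and 458 for hyperoxia by strain (862 and 893, 912 and 1084), 671 and 243 for ATG in hyperoxia (313 and 398, 276 and 452), and 265 and 205 for ATG by hyperoxia (182 and 342, 176 and 363). Cbr1 in C3H was not called without a filter (adjusted p = 0.0557), without a trend (adjusted p = 0.0528) or in the fit of all 48 mice (adjusted p = 0.101). Aldh2 for hyperoxia by strain was not called under either filter, either scaling or without a trend (adjusted p from 0.05001 to 0.165). Depth is unknown, so low values such as Aldh3a1 in single mice carry no interval.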

Other observations

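Several relatives of the 10 enzymes, none of which was called for ATG, were higher with ATG in hyperoxia over both strains and sexes. Of 8 other aldo-keto reductases 3 were called, namely Akr1b10 (0.45, adjusted p = 0.00345), the neighbour of Akr1b8, Akr1e1 (0.44, adjusted p = 0.0417) and Akr1c13 (0.36, adjusted p = 0.0348). Of 14 other carbonyl and aldehyde enzymes 3 were called, namely Ptgr1, a reductase of unsaturated aldehydes (0.46, adjusted p = 0.0114), Esd (0.28, adjusted p = 0.0277) and Park7 (0.20, adjusted p = 0.0475). Of the 14 other aldehyde dehydrogenases tested 0 were called. Of all genes 5.38% were called, with 671 higher and 243 lower, and this balance turned under quantile normalization (313 and 398) and median ratio scaling (276 and 452). Markers of other cells moved in the same comparison, where 4 of 6 alveolar macrophage markers were called lower (median log2 change of the 6 -0.71), 2 of 5 endothelial markers lower (median -0.24) and 2 of 8 alveolar type 2 cell markers higher (median 0.29). Their part in the changes of these enzymes was not tested.

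Between the strains in saline hyperoxia mice, Glo1, which clears methylglyoxal, was higher in C3H (1.34, adjusted p = 1.15e-09), as it was in room air (0.99, adjusted p = 1.75e-05), and so was Akr1b10 (1.12, adjusted p = 4.99e-06), and Esd was lower (-1.31, adjusted p = 3.3e-08). The ratio of Aldh1a7 to Aldh1a1 was 0.0808 to 0.120 in 12 C3H mice in room air and 0.115 to 0.168 in 12 C57B mice. In hyperoxia it was 0.0704 to 0.115 in C3H and 0.0658 to 0.163 in C57B.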
